A study of Homo sapiens with 8 samples.

Results

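The NF-κB targets and inflammatory chemokines described here are 10 genes, CXCL1, CXCL2, CXCL8, CCL20, NFKBIA, TNFAIP3, RELB, ICAM1, BIRC3 and IL32. They were found by their symbol in the expression table, which held 9 of the 10 among 25603 genes. The expression of CXCL1 was not analysed here. All 9 passed the filter on low values, together with 20153 genes in all, and 7 of them reached an estimated FPKM of 1. The measurements come from RNA-seq of HepG2, a human line established from a hepatocarcinoma, grown on gelatin in William E medium with 10% serum, insulin and 50 nM dexamethasone. For 4 days the cells received UNC1999 and valemetostat tosylate (Valmetostat Tosylate in the labels), each at 1 µM, or the DMSO vehicle at 0.2%. The DMSO and dexamethasone levels are those of the labels, and the methods of the study state other values. Both drugs inhibit EZH1 and EZH2, the enzymes of polycomb repressive complex 2 that methylate lysine 27 of histone H3, a mark of silenced genes. The treated group is called EZHi, and each group had 4 libraries, which the study calls biologically independent, all from this 1 line.

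NF-κB is a family of transcription factors that wait in the cytoplasm bound to IκB proteins. Signals from tumour necrosis factor, interleukin-1 or microbial products activate the IKK kinase complex, IκB is degraded, and NF-κB dimers enter the nucleus and switch on chemokines, adhesion molecules, survival genes and their own inhibitors. In liver cells the pathway is known for the acute response to injury and infection. Glucocorticoids such as dexamethasone, which all 8 cultures received, are known to damp many of these targets.

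Each member whose promoter could be read carried at least 1 of the short DNA motifs searched for, but no single motif was common to all. RefSeq promoter windows (GRCh38.p14, 250 bases before to 50 bases after the start) were found for 9 members, with CXCL1 among them but not RELB. They were searched on both strands for GGANNTTCC and for the longer kappaB consensus, which can overlap it. At least 1 of these motifs was present in 9 of the 10 windows, and so in 9 of the 9 members, against 9.27% of 35116 windows of the same length. GGANNTTCC itself was present in 7 of the 9 members, against 4.56% of windows. One member could have more than 1 window, and there were 10 windows in all. The members are grouped as NF-κB targets, so these shares are a description and not a test of the group. A match of letters does not show that a factor binds. The stretch from 250 to 51 bases before the start is printed in lower case for the 4 members whose values are treated in most detail, with the matches in capitals.

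ICAM1 promoter, chr19:10270870-10271069, plus strand: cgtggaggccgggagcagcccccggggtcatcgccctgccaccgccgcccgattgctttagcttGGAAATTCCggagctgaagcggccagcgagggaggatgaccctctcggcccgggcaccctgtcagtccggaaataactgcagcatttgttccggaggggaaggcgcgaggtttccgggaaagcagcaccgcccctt
NFKBIA promoter, chr14:35404800-35404999, minus strand: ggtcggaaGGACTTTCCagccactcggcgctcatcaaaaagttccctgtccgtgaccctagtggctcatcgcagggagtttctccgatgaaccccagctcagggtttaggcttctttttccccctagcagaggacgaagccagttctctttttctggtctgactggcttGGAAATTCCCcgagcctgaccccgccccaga
CXCL8 promoter, chr4:73740319-73740518, plus strand: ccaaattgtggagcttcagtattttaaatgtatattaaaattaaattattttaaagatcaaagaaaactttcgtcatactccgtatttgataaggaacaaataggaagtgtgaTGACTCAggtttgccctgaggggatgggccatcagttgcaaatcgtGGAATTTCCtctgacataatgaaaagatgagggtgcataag
CCL20 promoter, chr2:227813592-227813791, plus strand: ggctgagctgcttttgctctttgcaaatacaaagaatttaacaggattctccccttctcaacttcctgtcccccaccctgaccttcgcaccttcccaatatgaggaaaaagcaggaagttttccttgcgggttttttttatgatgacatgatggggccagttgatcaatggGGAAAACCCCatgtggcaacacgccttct

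ICAM1 and NFKBIA carried the same 9 letters, GGAAATTCC, at positions -186 and -81 from the start. CXCL8 (-91) and CXCL2 (-77) carried GGAATTTCC, which is the same motif read on the other strand. This 9-letter form was present in 0.461% of all windows. CCL20 instead matched the kappaB consensus with GGAAAACCCC at -79. The capitals in CXCL8 also mark TGACTCA at -137, the motif of AP-1 factors, which was present in 4.95% of all windows. These letters were found in the 2 members that fell with EZHi and in CXCL8 and CXCL2, which did not pass the test. CXCL1 carried them too, as GGAATTTCC at -78. CXCL8 varied widely between libraries and CXCL2 was very low, as given below, so neither shows an absence of change.

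The members spanned a wide range of levels. An estimated FPKM, rebuilt from the length-corrected log2 values, puts genes of different length on 1 scale. CCL20, the ligand of the receptor CCR6, was the most abundant member with a mean of 246 over the 8 libraries, followed by IL32 at 136, ICAM1 at 72.2 and NFKBIA at 68.2. TNFAIP3 stood at 20.9 and RELB at 3.41. CXCL8, at 1.27, BIRC3, at 0.956, and CXCL2, at 0.115, were the lowest. In vehicle, the ranges of neighbours in this order did not overlap, except for ICAM1 with NFKBIA and CXCL8 with BIRC3. CXCL8, the main neutrophil chemokine of human cells, and its relative CXCL2 were thus near the bottom of the order while CCL20 was at its top.

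**Figure D1:**
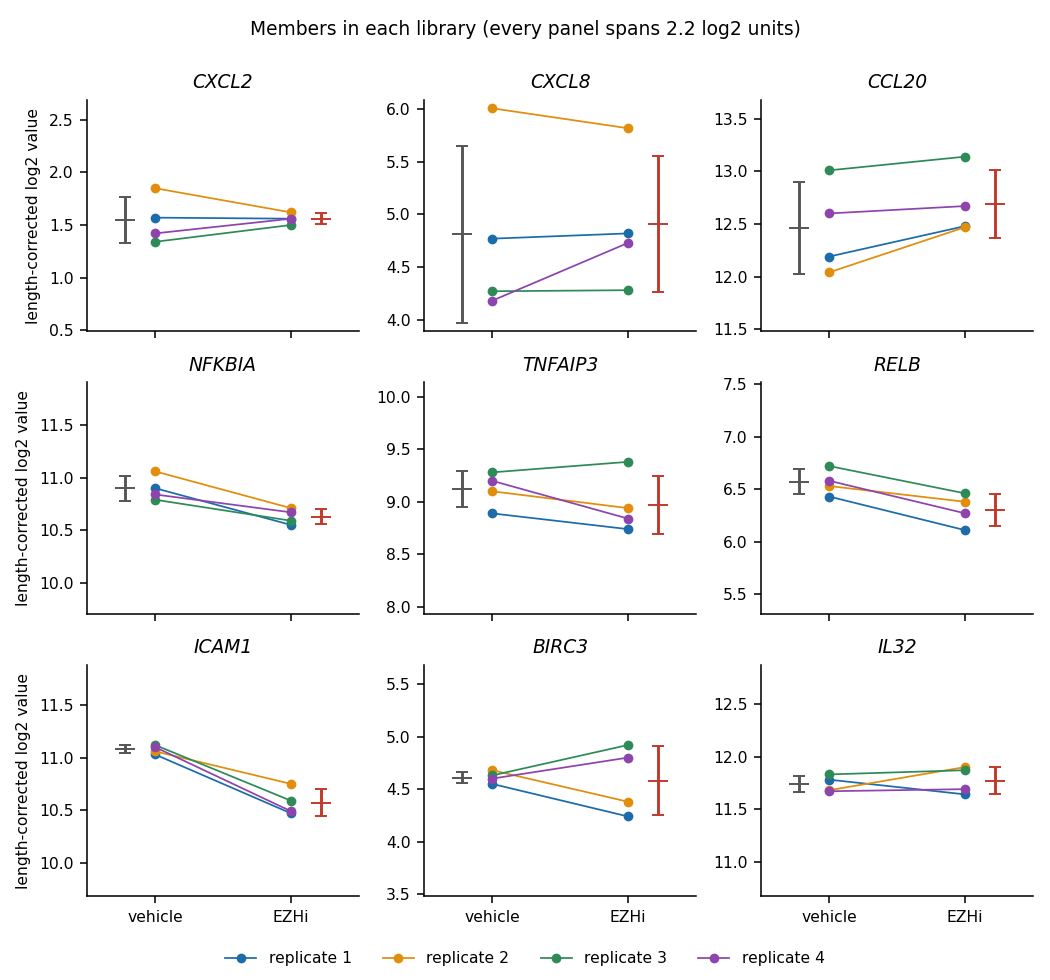
Length-corrected log2 value of each member (y axis, every panel spanning 2.2 log2 units) in vehicle and EZHi libraries (x axis), with lines joining libraries of the same replicate number and side bars giving mean ± SD (n = 4). ICAM1 and NFKBIA are lower in EZHi with no overlap, whereas CXCL8 is set apart by replicate 2 in both groups.

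Most members did not differ detectably between EZHi and vehicle, and 2 of them were lower in EZHi. In the limma fit over all 20153 genes, 2 of the 9 members were called lower at an adjusted p under 0.05, ICAM1 and NFKBIA. None was called higher. At an unadjusted p under 0.05 from limma, 3 members were lower, with RELB (0.0346) added, and 0 were higher. By limma, 4.27% of all genes tested were called lower, 8.85% higher and 13.1% in either direction. Both members exceed 10 FPKM, and in that class of 7809 genes 9.16% were called lower and 2.73% higher. The median log2 difference of the 9 members was -0.03, and that of all genes tested was -0.0077. These counts are from the fit without the replicate number. With that number as a block, 3 members were called lower and 1 higher, against 15.1% and 14.9% of all genes. Since the cells were measured in bulk, fewer cells of a kind and less RNA per cell cannot be told apart.

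ICAM1 (ENSG00000090339, GRCh38 chromosome 19, 10271093 to 10286615, plus strand, protein-coding) encodes the adhesion molecule that leukocytes grip through their β2 integrins. Its log2 values were 11.03, 11.06, 11.12 and 11.1 in vehicle replicates 1 to 4, and 10.47, 10.75, 10.59 and 10.49 in EZHi replicates 1 to 4. Every EZHi library lay below every vehicle library, as was the case for 7.93% of all genes (the opposite order held for 10.7%), and the vehicle libraries were close to each other. ICAM1 fell by 0.51 on the log2 scale (standard error 0.072, limma adjusted p 0.00138), from 11.08 ± 0.04 (SD, n = 4) to 10.57 ± 0.13 (SD, n = 4). This corresponds to -29.6%, with a 95% interval from -37.1% to -21.2%. ICAM1 was called in all 8 fits that left out 1 library and in every other alternative run, with log2 differences from -0.57 to -0.39. Exons of ICAM1 share 815 bases with ICAM4-AS1 and 61 bases with LIMASI on the opposite strand. Reads were counted without strand, so reads from these bases cannot be assigned to one gene. ICAM4-AS1 was listed at 0.00797 FPKM.

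NFKBIA (ENSG00000100906, chromosome 14, 35401079 to 35404749, minus strand, protein-coding) encodes IκBα, the inhibitor that NF-κB itself induces and that returns it to the cytoplasm. In vehicle its log2 values were 10.9, 11.06, 10.79 and 10.84, and in EZHi 10.55, 10.71, 10.59 and 10.67. The groups did not overlap, but the highest EZHi and the lowest vehicle library were close. NFKBIA fell by 0.27 (standard error 0.074, limma adjusted p 0.0406), which corresponds to -17.0% with a 95% interval from -26.0% to -6.9%. The call was narrow. The limma adjusted p was 0.0919, 0.0847 and 0.0715 without vehicle replicates 1, 2 and 4, and 0.105, 0.0508, 0.0898 and 0.0797 without EZHi replicates 1 to 4, while it was 0.0313 without vehicle replicate 3. It also depended on scaling: the median difference of genes of 10 FPKM and over was -0.0945 as deposited, and after centring the libraries on these genes NFKBIA differed by -0.17 (limma adjusted p 0.149). With the replicate number as a block the difference was negative in 4 of 4 pairs and the adjusted p was 0.00367.

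RELB (ENSG00000104856, chromosome 19, 45001461 to 45038192, plus strand, protein-coding) is an NF-κB subunit of the non-canonical branch and itself a target. Its log2 values were 6.43, 6.53, 6.72 and 6.58 in vehicle and 6.11, 6.38, 6.46 and 6.27 in EZHi. Within every pair the EZHi library was the lower one, although the ranges of the groups met, since EZHi replicate 3 was above vehicle replicate 1. The difference of -0.26 with a standard error of 0.11 was not called without the block (limma adjusted p 0.148) and was called with it (adjusted p 0.0346), when 30.0% of all genes were called and 15.1% were called lower. With the block and centring together RELB differed by -0.17 and was not called (limma adjusted p 0.15), and with the block and quantile normalization it differed by -0.37 and was called (0.00874).

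TNFAIP3 (ENSG00000118503, chromosome 6, 137867214 to 137883314, plus strand, protein-coding) encodes A20, a ubiquitin-editing enzyme that terminates NF-κB signalling. It read 8.89, 9.1, 9.28 and 9.2 in vehicle and 8.74, 8.94, 9.38 and 8.84 in EZHi. It was lower in 3 of 4 pairs and higher in replicate 3. The difference of -0.14 was within the spread between libraries (95% interval from -0.46 to 0.17, limma adjusted p 0.578). TNFAIP3 shares 95 exonic bases with the opposite-strand WAKMAR2, which was listed at 2.26 FPKM.

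CCL20 (ENSG00000115009, chromosome 2, 227805739 to 227817564, plus strand, protein-coding) attracts CCR6-bearing lymphocytes and dendritic cells. Its log2 values were 12.19, 12.04, 13.01 and 12.6 in vehicle, and 12.48, 12.47, 13.14 and 12.67 in EZHi. Replicate 3 was the highest library and replicate 4 the next in both groups. Replicates 1 and 2 were the lowest and lay closer to each other within a group than to their same-numbered libraries. The differences within pairs 1 to 4 were 0.29, 0.43, 0.13 and 0.065. The group means differed by 0.23, about as much as the standard error of 0.22 (limma adjusted p 0.567). With the replicate block the standard error was 0.062 and the adjusted p 0.0235, against 14.9% of all genes called higher in that fit. CCR6, its receptor, did not pass the filter, at 0.0352 FPKM.

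CXCL8 (ENSG00000169429, chromosome 4, 73740519 to 73743716, plus strand, protein-coding) varied most of the 9 members. It read 4.77, 6.01, 4.27 and 4.18 in vehicle and 4.82, 5.82, 4.28 and 4.73 in EZHi. Replicate 2 was the highest library of both groups, and the means of the replicate numbers spanned 1.64 log2 units. The groups differed by 0.11, well within the standard error of 0.43 (limma adjusted p 0.913), and the 95% interval ran from -0.85 to 1.07. With the replicate block the interval narrowed to between -0.2 and 0.41 and the gene was not called. With 4 libraries per group, the values were compatible with differences across each of these intervals.

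The 5 genes whose values followed CXCL8 most closely over the 8 libraries, among 13006 genes of at least 1 FPKM, were GNPTAB (Pearson r = 0.975), PITPNC1 (0.967), SERPINB8 (0.964), SPINT1 (0.958) and RBM45 (0.953). All 5 were highest in replicate 2 of both groups, as CXCL8 was, which their choice by this correlation made likely. With 8 libraries that pair by replicate number, these values are descriptions. GNPTAB had a standard deviation of 0.11 over the libraries, so genes far steadier than CXCL8 shared its pattern.

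CXCL2 (ENSG00000081041, chromosome 4, 74097040 to 74099196, minus strand, protein-coding), a neutrophil chemokine, stayed between 1.34 and 1.85 in vehicle and between 1.5 and 1.62 in EZHi, with a difference of 0.014 (limma adjusted p 0.954). At this level the regularized log pulls libraries together, and CXCL2 has near-identical relatives with which reads can be shared, so its value is uncertain. IL32 (ENSG00000008517, chromosome 16, 3065297 to 3082192, plus strand, protein-coding) encodes a proinflammatory cytokine that mice lack. It lay between 11.67 and 11.83 in vehicle and between 11.64 and 11.9 in EZHi. Its difference of 0.033 had a 95% interval from -0.14 to 0.2 (limma adjusted p 0.841), the narrow interval of an abundant and steady gene.

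BIRC3 (ENSG00000023445, chromosome 11, 102317484 to 102339403, plus strand, protein-coding) encodes the ubiquitin ligase cIAP2, which protects from death by tumour necrosis factor. In vehicle it was nearly constant, at 4.55, 4.68, 4.63 and 4.6. In EZHi it read 4.24, 4.38, 4.92 and 4.8. Replicates 1 and 2 were thus below every vehicle library and replicates 3 and 4 above every one, and the means differed by -0.03, less than the standard error of 0.16 (limma adjusted p 0.935).

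**Figure D2:**
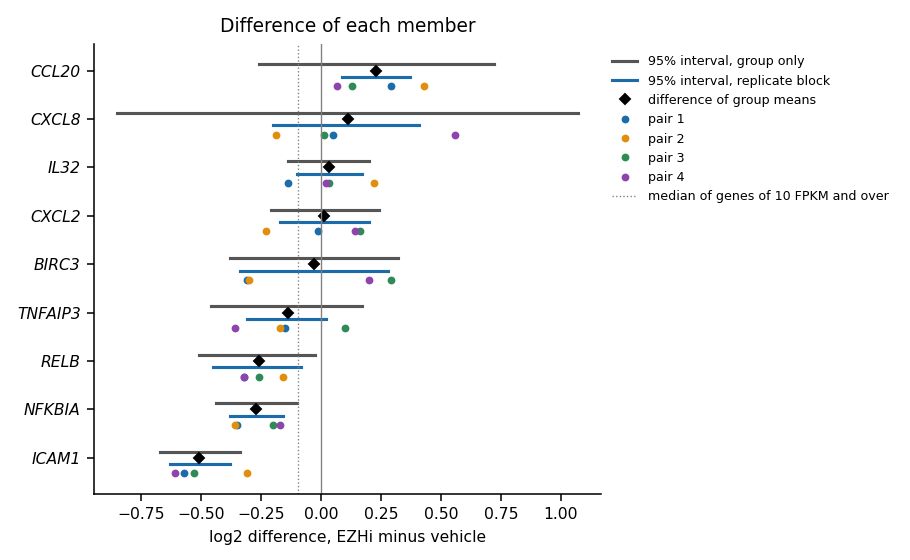
Log2 difference between EZHi and vehicle (x axis) for each member (y axis): diamonds are differences of group means, bars 95% intervals without (grey) and with (blue) the replicate block, and small points the 4 pairs. ICAM1, NFKBIA and RELB lie below 0 with both intervals, although RELB was not called without the block. The interval of CCL20 leaves out 0 with the block alone. The dotted line marks -0.0945, the median of genes of 10 FPKM and over.

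The plot of differences shows how much of the spread belonged to the replicate number. For CCL20 and CXCL8 the interval with the block was much narrower than without it, whereas for BIRC3 and CXCL2 it was nearly as wide. With the block 4 of the 9 members were called, ICAM1, NFKBIA and RELB lower and CCL20 higher. In that fit 30.0% of all genes were called, 15.1% lower and 14.9% higher, and among genes of 10 FPKM and over 32.5% were called lower and 8.2% higher. After centring, ICAM1 alone of the members was called, when 14.2% of all genes were called, 1.58% lower and 12.7% higher. With the block and centring together 3 members were called, ICAM1 and NFKBIA lower and CCL20 higher, against 29.4% of all genes, 6.79% lower and 22.6% higher. The share of genes called lower thus moved with the scaling, while ICAM1 was called lower in each of these 4 fits.

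**Figure D3:**
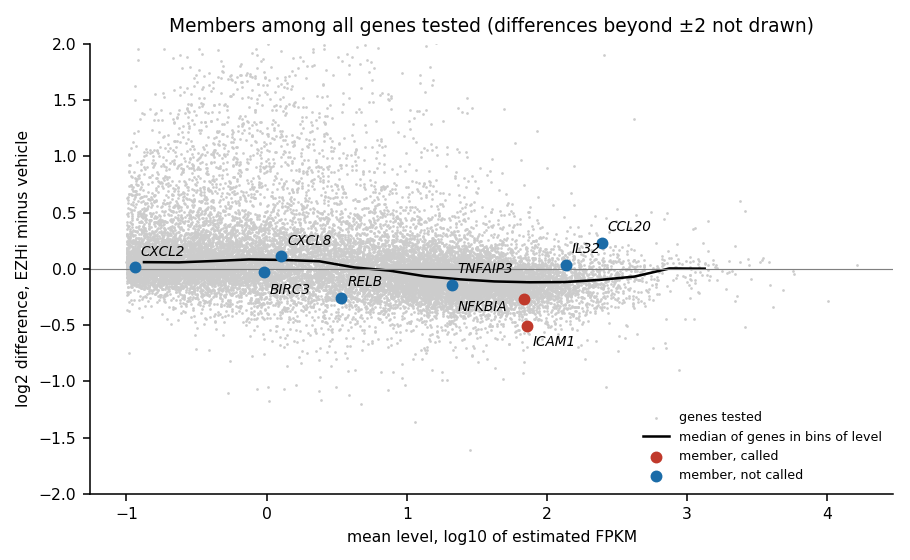
Log2 difference between EZHi and vehicle (y axis, 110 genes beyond 2 in either direction not drawn) against the mean level as log10 of estimated FPKM (x axis) for the genes tested (grey), with their running median (black line) and the members (red, called; blue, not called). ICAM1 and NFKBIA lie below the median of genes of their level, and CCL20 and IL32 lie above it.

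The rest of the pathway was examined by role, with 155 further genes in lists, of which 126 were in the table and 110 were tested. These lists also took in related genes outside the pathway itself: chemokine receptors, AP-1 and immediate early genes, and glucocorticoid-responsive genes. The pooled counts and medians cover them too. As deposited 12 were called higher and 14 lower in limma, and after centring 15 and 3, so the balance depended on the scaling. Over all genes tested, 8.85% were called higher and 4.27% lower as deposited, and 12.7% and 1.58% after centring. With the block the shares were 14.9% and 15.1%. Among genes of 10 FPKM and over, 9.16% were called lower as deposited and 32.5% with the block. The counts of each list below are to be read beside these shares. The median log2 difference of the 110 genes was -0.089 as deposited and 0.0061 after centring. The number called was 15 without vehicle replicate 2, and 13 without vehicle replicate 4, EZHi replicate 1 or EZHi replicate 4. Of the genes called higher 9 of 12 were called in all 8 fits that left out 1 library, and of those called lower 3 of 14 were, namely BCL2L1, TNFRSF12A and ZFP36. These 3 and all 12 higher genes were also called after centring. The higher genes outside the 9 were IL1R1, CD40 and ICAM2, called in 2, 1 and 3 of the 8 fits. Genes called higher were low in level, with a median of 1.44 FPKM, and those called lower had a median of 30.9 FPKM.

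Among the NF-κB subunits, 2 of 4 were called lower and 0 higher. NFKB2, the precursor of the RELB partner p52, fell by 0.30 (limma adjusted p 0.0268) and RELA, the p65 subunit, by 0.25 (adjusted p 0.0407). NFKB1 differed by -0.24 and REL by -0.23, and neither was called. All 4 differences were negative as deposited, centred and after quantile normalization, but after centring 0 of the 4 were called (1 at an unadjusted p under 0.05), with adjusted p from limma of 0.0915 for NFKB2 and 0.192 for RELA. With the block and centring together 3 of 4 were called lower.

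Of the IκB proteins and other inhibitors, the class to which NFKBIA and TNFAIP3 belong, 4 of 11 were called lower and 0 higher. ZFP36, which encodes the mRNA-destabilising protein tristetraprolin, fell by 0.99 (standard error 0.2, limma adjusted p 0.00894), from 9.21 ± 0.37 to 8.23 ± 0.3 (SD, n = 4), and was lower in 4 of 4 pairs. BCL3, an atypical IκB protein, fell by 0.39, the ribonuclease gene ZC3H12A by 0.31 and TNIP1, a partner of A20, by 0.30. After centring only ZFP36 was called in this list. NFKBIB (-0.41, limma adjusted p 0.053) and NFKBIE (-0.26, adjusted p 0.0925) did not pass the test, but did with the block (0.00218 and 0.0173), when 6 of the 11 were called lower and 0 higher. OTULIN differed by -0.14, and CYLD and TNIP2 differed by less than 0.1.

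Receptors went both ways, with 4 of 15 called higher and 1 lower. TLR3, the sensor of double-stranded RNA, rose by 1.61 (limma adjusted p 0.000218), from 2.13 ± 0.19 to 3.74 ± 0.35 (SD, n = 4), and TLR2 by 0.59, both at under 1 FPKM. IL1R1, the interleukin-1 receptor at 57.6 FPKM, rose by 0.50 (adjusted p 0.0427) and CD40 by 0.26. TNFRSF12A, the receptor of TWEAK, fell by 0.83 (adjusted p 0.0104). TNFRSF1A, the main receptor of tumour necrosis factor, differed by -0.26, was not called (limma adjusted p 0.0852) and was called with the block (0.00318), lower in 4 of 4 pairs. With the block 6 receptors were called higher and 5 lower. The median of the list was -0.045 as deposited and 0.05 after centring.

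The adaptors and kinases that carry the signal to IKK were mostly not called, with 1 of 22 higher and 1 lower. TRAF5, an adaptor of tumour necrosis factor receptors, rose by 1.79 (limma adjusted p 8.63e-05), from 4.27 ± 0.34 to 6.06 ± 0.078 (SD, n = 4). TICAM1, the adaptor of TLR3, fell by 0.50 (adjusted p 0.0261), so the sensor and its adaptor moved in opposite directions, although TICAM1 was not called after centring (0.0522). IKBKB, CHUK and IKBKG, which encode the IKK complex, differed by -0.0084, -0.18 and -0.13 and were not called. IRAK1, the most abundant of the list at 108 FPKM, differed by -0.24 (adjusted p 0.209, and 0.00607 with the block). With the block 1 of the 22 was called higher and 8 lower, CHUK among them (limma adjusted p 0.021).

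Of the other chemokines 1 of 6 tested was called higher and 0 lower. CCL24, at 0.18 FPKM, rose by 0.32 (limma adjusted p 0.00913), but it was not called after quantile normalization. CXCL16, the most abundant at 83.2 FPKM, differed by -0.19, and CX3CL1 by 0.15. Of 9 cytokines tested 0 were called in either direction by limma (1 at an unadjusted p under 0.05), and 5 were called with the block, 2 higher and 3 lower. TGFB1, the most abundant cytokine at 86.0 FPKM, differed by -0.26 (adjusted p 0.117). Of 3 chemokine receptors tested, ACKR3, a scavenger of CXCL12, rose by 1.03 (adjusted p 0.006).

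Of other known targets of NF-κB, 5 of 20 were called higher and 4 lower as deposited, 5 and 1 after centring, 5 and 0 after quantile normalization, and 8 and 6 with the block. NOS2, the inducible nitric oxide synthase, rose by 1.70 and CD83, an immune surface protein, by 1.70 (limma adjusted p 0.00196 and 0.000121). TNFAIP2 rose by 1.04, LCN2, an iron-sequestering acute-phase protein, by 1.03, and ICAM2, a relative of ICAM1, by 0.51. The survival genes BCL2L1 and XIAP fell by 0.34 and 0.25, the mitochondrial superoxide dismutase gene SOD2 by 0.29 and KLF6 by 0.38. C3, the central complement component at 3460 FPKM, differed by 0.093 and was not called. The 2 adhesion genes thus went opposite ways, ICAM1 lower at 72.2 FPKM and ICAM2 higher at 2.9 FPKM, while VCAM1 and SELE, which endothelial cells induce, did not pass the filter.

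AP-1 and immediate early genes, which the same stimuli induce, had the lowest median of any list, -0.41, with 2 of 11 called lower and 0 higher. FOSL2 fell by 0.64 (limma adjusted p 0.0383) and IER2 by 0.36 (adjusted p 0.0258). DUSP1 is also among the glucocorticoid-responsive genes. EGR1 (-0.90, adjusted p 0.0506), DUSP1 (-0.59), JUNB (-0.44) and JUND (-0.44) were not called. Differences were negative for 10 of 11 genes as deposited, centred and after quantile normalization, but after centring limma called 0 (4 at an unadjusted p under 0.05), and with the block it called 6. Of 10 glucocorticoid-responsive genes, examined because the medium held dexamethasone, 0 were called by limma without the block (1 at an unadjusted p under 0.05) and 6 with it, 3 higher and 3 lower. FKBP5, a sensitive reporter of the glucocorticoid receptor, differed by -0.35 (limma adjusted p 0.168, and 0.000623 with the block) and was lower in 4 of 4 pairs. PCK1 had the largest difference of the list, 1.08 (limma adjusted p 0.201, and 0.000166 with the block), and was higher in 4 of 4 pairs. The receptor gene NR3C1 differed by -0.089.

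**Figure D4:**
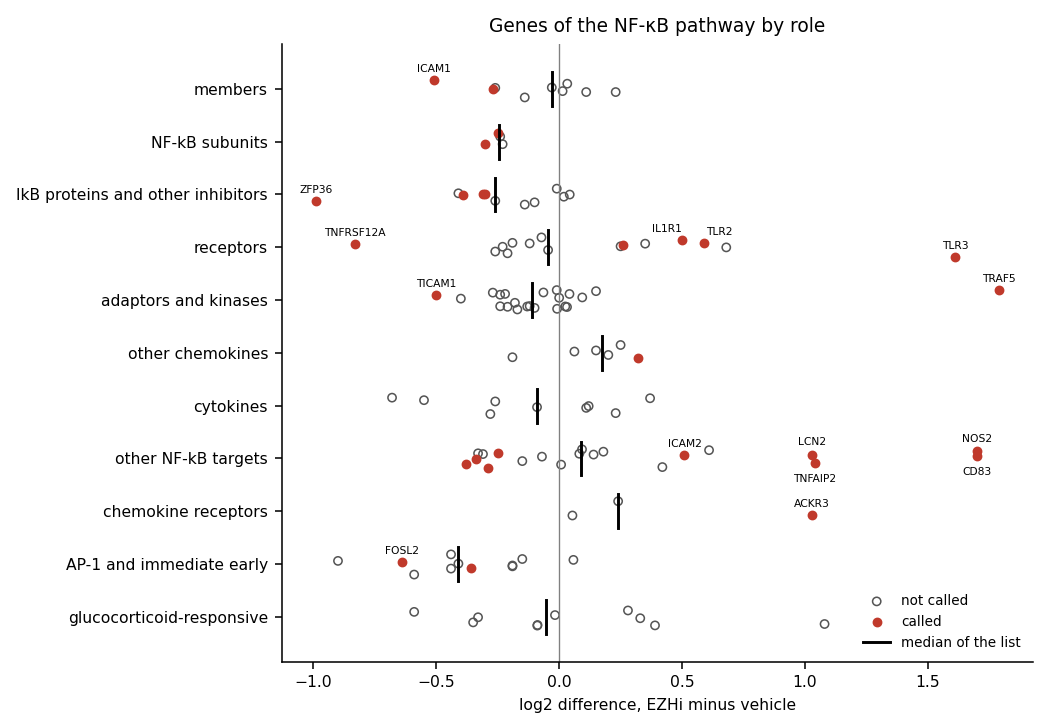
Log2 difference between EZHi and vehicle (x axis) of each tested gene by list (y axis): filled red points are called by limma, open points are not, and black bars are list medians. Differences called higher reach 1.79 for TRAF5 and those called lower reach -0.99 for ZFP36, with the members between -0.51 and 0.23.

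The identity of the cells was checked on markers. All 9 hepatocyte and hepatocarcinoma markers were tested, and AFP (16200 FPKM) and ALB (10100 FPKM) were very high. FGB, a fibrinogen gene of this list, rose by 0.92 (limma adjusted p 0.00167) and was the only 1 of the 9 called. ALB had the only negative difference, -0.28, and was lower in 4 of 4 pairs. It was not called (limma adjusted p 0.638) but was with the block (0.0314). The summed level of these markers ranged from 24100 to 47000 FPKM in vehicle and from 26500 to 43100 in EZHi. Of T and NK cell markers 3 of 6 were tested, with sums of 1.41 to 1.63 and 2.0 to 2.16 FPKM, and GNLY, at 0.319 FPKM, rose by 0.89 (limma adjusted p 0.0041). Of fibroblast and stellate markers 2 of 5 were tested, with sums of 12.2 to 15.0 and 14.7 to 17.2 FPKM. Of macrophage and monocyte markers 3 of 5 were tested, with sums of 1210 to 1690 and 1090 to 1560 FPKM that came from LYZ (1420), since CD14 was at 0.983 and CSF1R at 0.208. Of endothelial markers 4 of 5 were tested, and their sum was 2.4 to 2.89 FPKM in vehicle and 3.59 to 7.34 in EZHi. In limma VWF rose by 1.45 and CDH5 by 2.28, whereas PECAM1 (0.042) and STAB2 (-0.073) were not called. The part of these markers in the members' differences was not tested.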

How the data were processed

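RNA-seq libraries (paired reads of 150 bp, 4 per group) were grouped by sample title. According to the methods and the submitters' processing notes, the authors mapped reads to hg38 with HISAT2 (2.2.1), counted them over exons without strand with HTSeq (0.9.1), applied the regularized log of DESeq2 (1.40.2) and corrected for mean transcript length. For HISAT2 and DESeq2 the methods of the authors give other versions. The authors named the deposited table FPKM, but its entries are log2 values between -6.81 and 19.01. The regularized log shrinks differences of low genes, whose fold changes are understated. Read depth is unknown, so no counting interval is given. Of 25604 rows, 1 repeated another and was dropped.

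An estimated FPKM was obtained by back-transforming a value and dividing by 25.6, a scale set by the mean library sum of length-multiplied values. Genes with a mean of at least 0.1 were tested with limma 3.58.1 in R 4.3.3 (two-sided, with a trended prior and no covariate, p adjusted over 20153 genes after Benjamini-Hochberg), and an adjusted p under 0.05 is described as called. On simulated data for 20153 genes the fit was tested before use. GENCODE release 44 gave positions for 25594 genes.

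Replicate numbers come from the titles. Deviations from the group means of same-numbered libraries correlated at 0.31, 0.558, 0.634 and 0.216. Those of libraries with unlike numbers correlated at -0.582 to 0.199, so the value of replicate 4 was only just above them. The numbers were taken to pair the libraries, and a fit with the number as a block was run as an alternative. The study states that replicates were independent. Other alternatives changed the scaling, filter, pseudocount (0.1, 0.5 or 1), variance model or left out each library in turn. The rule for naming took all members, every called gene of the lists, and up to 5 uncalled genes of each list in order of level. CHUK, IKBKB, IKBKG, EGR1, CCR6, VCAM1 and SELE fall outside it and were named after their values were seen. For the likeness to CXCL8, the 5 best correlated genes were taken. The members and lists were chosen with earlier results of these data known. No count model was used on these normalized values.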

Additional observations from a re-analysis of the deposited data

Results flagged for a closer look

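As a check for single libraries that stand apart, the highest and the lowest value of each of the 9 members in each group of 4 were compared with Dixon's critical value, and 0 of 18 groups exceeded it, where chance alone would give about 0.9.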

How the results depend on the processing

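The log2 difference of ICAM1 kept its direction and its call under all 21 alternatives. That of NFKBIA kept its direction under all of its 21 alternatives but lost its call under 11 of them, including quantile normalization (-0.15), centring (-0.17) and the fit without a trended prior. The count of members called was 2, and it was 4 with the replicate block, 4 with the block and quantile normalization (RELB, ICAM1, CCL20 and IL32, without NFKBIA, whose limma adjusted p was 0.0532), and 1 with quantile normalization alone, with centring alone and without the trend. It ranged from 1 to 2 over the fits that left out 1 library. On the values as deposited, besides RELB and CCL20, the block changed no other call of a member. The count over all genes, 2644, was 6051 with the block, 5917 with the block and centring, 5590 with the block and quantile normalization, and 1579 with the filter at 1, where fewer genes were tested. The count over the pathway lists, 26, was 63, 57 and 56 in the same 3 block fits, and ranged from 13 to 26 when 1 library was left out. The combinations of block and scaling were chosen after seeing the data.

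Signs turned only among members that were not called. With quantile normalization the difference of CXCL2 was -0.12 and that of CXCL8 -0.093, with or without the block, and IL32 differed by 0.16 with both at once ( limma adjusted p 0.0456). After centring, with or without the block, BIRC3 differed by 0.066. Leaving out 1 library gave -0.054 to 0.11 for CXCL2, -0.19 to 0.51 for CXCL8, -0.14 to 0.086 for BIRC3 and -0.0079 to 0.078 for IL32. The cause was not tested. Depth is unknown, and shrinkage of low values limits CXCL2, CXCL8 and BIRC3 most.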
